A study of Solanum lycopersicum with 3 samples.

Results

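The miRNAs described here are 45 predicted tomato miRNAs of moderate read depth whose reads were lower in AGL6-silenced ovaries than in mock-treated ovaries. They were chosen by their measured values. A predicted miRNA entered the set if its reads over the 3 libraries numbered at least 50 and fewer than 500 and if its ratio of AGL6sil to ctrl, after division of each library by its median count, was 1/1.5 or less, with 0 reads taken as 3. Of 509 predicted miRNAs, 235 had such a read total, and 45 of them met the ratio. Another 125 miRNAs counted in the libraries are known ones. The reads of IAA9sil did not enter the ratio, although they entered the read total.

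The 3 libraries came from ovaries of tomato (Solanum lycopersicum) cultivar UC82, taken from the buds of a group of plants, with 1 library per condition. AGL6sil ovaries had received dsRNA against AGL6, and IAA9sil ovaries dsRNA against IAA9, in both cases 5 µg per ovary injected into the flower pedicel on layered double hydroxide (LDH) particles, a mineral carrier. The ctrl ovaries had received the LDH particles alone. Flower buds of all groups were emasculated and kept from pollination, and pre-anthesis ovaries were taken after 5 days. The study describes its silencing method as transient. The labels call the ctrl ovaries WT, and they call the ovaries of all 3 groups detached, whereas the treatment protocol has the buds left on the plants, a conflict that could not be settled. Small RNA reads hold no mRNA, so neither the transcripts of AGL6 and IAA9 nor markers of ovary tissue could be checked.

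AGL6 is a MADS-box transcription factor and IAA9 an Aux/IAA repressor of auxin signaling, and both hold back the growth of the tomato ovary before fertilization. A plant miRNA is cut by a Dicer-like enzyme from a hairpin precursor as a short duplex. One strand, the miRNA, is loaded into an Argonaute protein and guides it to target mRNAs, and the other, the star strand, is mostly degraded. In Arabidopsis, small RNAs of 24 nt that begin with A are mostly made by a different Dicer-like enzyme and guide chromatin silencing at repeats, and programs that predict miRNAs from hairpins can list such RNAs as miRNAs.

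The mature sequence was at hand for 12 of the 45 members, from the study's supplementary list of altered predicted miRNAs. They are printed to show what kinds of small RNA the set holds. Each is given 5′ to 3′, with the seed, bases 2 to 8, in capitals. The first 9 belong to the 10 members with the lowest ratios in AGL6sil, and the last 3 are the members that stood furthest from ctrl in IAA9sil among the other 35.
novel_225: gGUCAUGCucggacagccucacu
novel_296: gAUUUGAGcuuggaacuucca
novel_281: aGGUUGAUguacguuacuguaagu
novel_522: aCAAAUGGauaagauggagaggug
novel_264: gCAGCACCauuaagauucac
novel_304: uCGGGUGCuugucugucuuaa
novel_516: aCACUUCUguugaacaaagcgaga
novel_551: aACAAGUCcaacaagaaaaacgug
novel_252: aAUCAAAAucgcugcugaccuagc
novel_93: aAUCUUGGaauguuuugcuuuggu
novel_122: aUAACGGCuacggauuuuccuugu
novel_220: gUUCCCUUgaucacuucaug

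Of these 12 sequences, 7 were 24 nt long, and all 7 began with A. The remaining members with a sequence were novel_225 at 23 nt, novel_296 and novel_304 at 21 nt, and novel_264 and novel_220 at 20 nt. None of these 5 began with A, and novel_304 was the only sequence of the 12 that began with U, the usual first base of miRNAs bound by AGO1 in Arabidopsis. Among the 35 other predicted miRNAs on the same list, 28 were 24 nt long, and 19 of those 28 began with A. The list holds only miRNAs that passed a fold threshold, so these counts describe the listed members and not the 33 without a sequence. None of the 12 shared its seed with another of them or with any other of the 46 known and 47 predicted miRNAs whose sequences could be compared.

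The set is small in reads. Its 45 members summed to 2236 reads in AGL6sil and 2396 in IAA9sil, against 2365 in ctrl. These were 3.44% of the reads that fell on any predicted miRNA in AGL6sil, 7.16% in IAA9sil, against 7.68% in ctrl. The libraries held 1460919, 1053000 and 1038064 miRNA reads in the same order, with a median of 33, 18 and 15.5 reads per miRNA. Scaling by the median thus divided AGL6sil counts by 2.13 and IAA9sil counts by 1.16, with ctrl left as counted. Before scaling, 25 of the 45 members had more reads in AGL6sil than in ctrl, 2 had equal reads and 18 had fewer.

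Each log2 ratio below is given after this scaling, with a 95% interval in brackets, derived by the Clopper-Pearson method from the split of the reads between the 2 libraries. No molecular identifiers are described for these reads, so they cannot be taken as independent molecules, and these intervals express counting error alone. With 1 library per condition there is no replicate check and no test, and every ratio compares these libraries. The ratios of AGL6sil to ctrl are those that chose the members and are given as a description.

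The 45 ratios of AGL6sil to ctrl ranged from −4.37 to −0.59 with a median of −1.06 on the log2 scale, against a median of 0.10 over the 235 predicted miRNAs with the same read limits. The share below the limit was 19.1% of the 235, which is the set itself, and 30.2% of all 374 miRNAs with at least 50 reads. The 91 known miRNAs among these 374 had a median log2 ratio of −1.20. For description, the members were divided into a low group and a larger group nearer the limit. A log2 ratio of −1.5 or less, the 1.5 threshold of the study taken on the log2 scale, was met by 10 members, 4.26% of the 235, and these ranged from −4.37 to −1.80. The other 35 ranged from −1.44 to −0.59. The counting interval lay below 0 for all 10 low members and for 28 of the other 35.

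**Figure D1:**
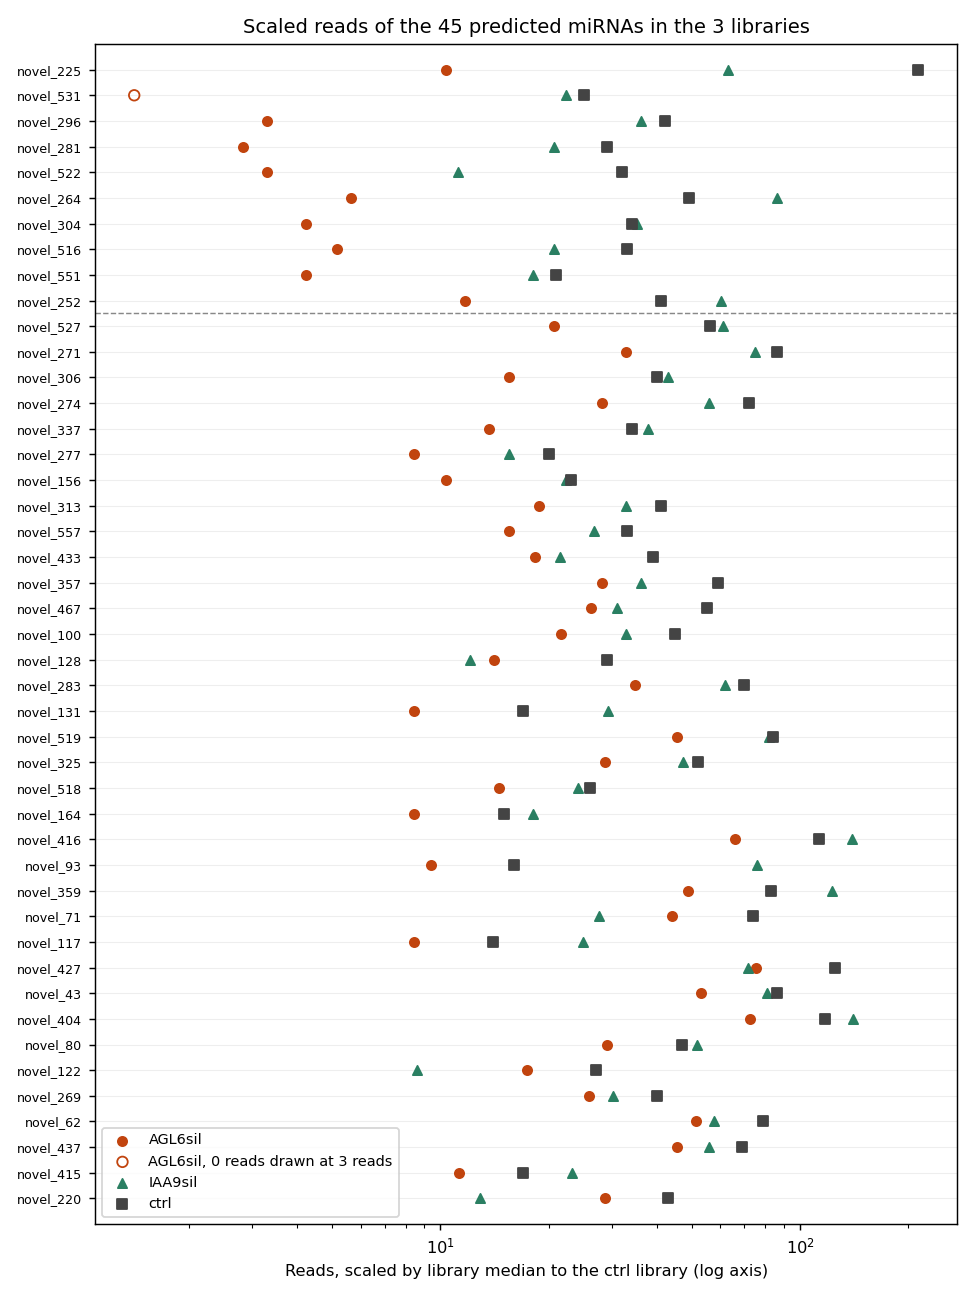
Reads of each of the 45 members in AGL6sil (circles), IAA9sil (triangles) and ctrl (squares), scaled by the library median to the ctrl library, on a log axis, with 1 library per condition. Members run from the lowest ratio of AGL6sil to ctrl at the top, the dashed line parts the 10 members at −1.5 or less from the other 35, and the open circle is novel_531, whose 0 reads are drawn at 3.

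Among the 10 low members, novel_225 had the most reads, 22 in AGL6sil and 73 in IAA9sil, against 213 in ctrl. Both silenced libraries were below ctrl, with a log2 ratio of −4.37 (−5.07 to −3.73) in AGL6sil and −1.76 (−2.16 to −1.37) in IAA9sil. A GC content of 60.9% set this 23-nt sequence apart from the other 11, which lay between 33.3% and 47.6%. The only other low member that was past −1.5 in IAA9sil was novel_522, a 24-nt sequence with 7 reads in AGL6sil and 13 in IAA9sil, against 32 in ctrl. Its log2 ratios were −3.28 (−4.71 to −2.08) in AGL6sil and −1.52 (−2.57 to −0.55) in IAA9sil.

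In 6 low members IAA9sil was within 1.5-fold of ctrl. They were novel_531, novel_296, novel_304, novel_551, novel_281 and novel_252, and the first 4 had log2 ratios in IAA9sil between −0.22 and 0.05. novel_531 was the single member with no reads in a library. It had 0 reads in AGL6sil and 26 in IAA9sil, against 25 in ctrl, and was at least 17.7-fold lower in AGL6sil than in ctrl with AGL6sil taken at its floor of 3 reads and the ctrl count taken without error. With the counting error of ctrl included, the upper end of its log2 interval was −3.74, a smaller difference. novel_296, a 21-nt sequence, had 7 reads in AGL6sil and 42 in IAA9sil, against 42 in ctrl, a log2 ratio of −3.68 (−5.07 to −2.51) in AGL6sil and −0.22 (−0.87 to 0.44) in IAA9sil. The count of novel_304, also of 21 nt, was 9 in AGL6sil and 41 in IAA9sil, against 34 in ctrl, with −3.01 (−4.25 to −1.92) and 0.05 (−0.64 to 0.75). For novel_551, of 24 nt, the counts were 9, 21 and 21 in the same order, with −2.31 (−3.62 to −1.13) in AGL6sil and −0.22 (−1.16 to 0.73) in IAA9sil. None of these 4 intervals in AGL6sil reached the 1.5-fold limit, and all 4 intervals in IAA9sil included 0.

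After scaling, IAA9sil lay between the other libraries in 7 of the 10 low members. These included novel_281 and novel_516, both of 24 nt. novel_281 had counts of 6 in AGL6sil and 24 in IAA9sil, against 29 in ctrl, with log2 ratios of −3.36 (−4.92 to −2.07) in AGL6sil and −0.49 (−1.33 to 0.34) in IAA9sil. novel_516 had counts of 11, 24 and 33, with −2.68 (−3.81 to −1.65) and −0.68 (−1.5 to 0.13). For both, the interval in IAA9sil included 0. In the other 3, novel_304, novel_264 and novel_252, the scaled count was highest in IAA9sil, by a small margin in novel_304. novel_264, of 20 nt, had 12 reads in AGL6sil and 100 in IAA9sil, against 49 in ctrl, with log2 ratios of −3.12 (−4.17 to −2.19) in AGL6sil and 0.81 (0.31 to 1.34) in IAA9sil. novel_252, of 24 nt, had 25, 70 and 41 reads, with −1.80 (−2.58 to −1.05) and 0.56 (−0.02 to 1.15).

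The 10 low members together had 108 reads in AGL6sil and 434 in IAA9sil, against 519 in ctrl. Of the reads on predicted miRNAs, they held 0.166% in AGL6sil and 1.30% in IAA9sil, against 1.69% in ctrl. They rested on few reads, since 7 of the 10 had fewer than 100 over the 3 libraries.

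The other 35 members summed to 2128 reads in AGL6sil and 1962 in IAA9sil, against 1846 in ctrl, so that only the scaling placed AGL6sil below ctrl for most of them. Raw reads were higher in AGL6sil for 25 of the 35, lower for 8 and equal for 2. They held 3.27% of such reads in AGL6sil and 5.87% of them in IAA9sil, against 5.99% in ctrl. The 4 members with the most reads lay here. novel_404 had 154 reads in AGL6sil and 163 in IAA9sil, against 117 in ctrl, and a log2 ratio of −0.69 (−1.05 to −0.33) in AGL6sil. novel_416 had 140, 162 and 113 reads and −0.78 (−1.15 to −0.41). novel_427 had 161, 83 and 125 reads and −0.73 (−1.07 to −0.38), and novel_359 had 104, 142 and 83 reads and −0.76 (−1.19 to −0.33). All 4 had more raw reads in AGL6sil than in ctrl. With 434, 415, 369 and 329 reads in all, they exceeded the 308 of novel_225, and novel_427, novel_404 and novel_416 had the narrowest intervals of the set.

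The members nearest the limit showed how little divided the set from its neighbours. Just inside it were novel_415, with 24 reads in AGL6sil and 27 in IAA9sil, against 17 in ctrl, at a log2 ratio of −0.59 in AGL6sil, and novel_220, with 61, 15 and 43 reads, also at −0.59. Just outside were novel_363, with 27, 4 and 19 reads at −0.58, and novel_78, with 86, 44 and 60 reads at −0.57. The limit of 1/1.5 is −0.58 on the log2 scale, and for novel_415 and novel_220 the counting interval reached above 0. Within the 235, 45 miRNAs had a counting interval below 0, of which 38 were members.

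The direction of the larger group depended on the scale. A scale moves all ratios of a library by the same amount, and none of the 7 tried moved them far enough to bring a ratio of −1.5 to 0, so the low group is below ctrl under each of them by the way it was divided off. Of the other 35, all were below ctrl with the library median, the median of predicted miRNAs, the median of ratios of DESeq2 or the TMM factors of edgeR, 33 with the total miRNA count, 8 without scaling and 5 with the clean reads. With the clean reads, the median log2 ratio was −1.89 for the 10 low members and 0.45 for the other 35, against −3.20 and −0.86 with the library median. Chosen again under that scale, the rule kept 9 of the 45 members and added none.

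**Figure D2:**
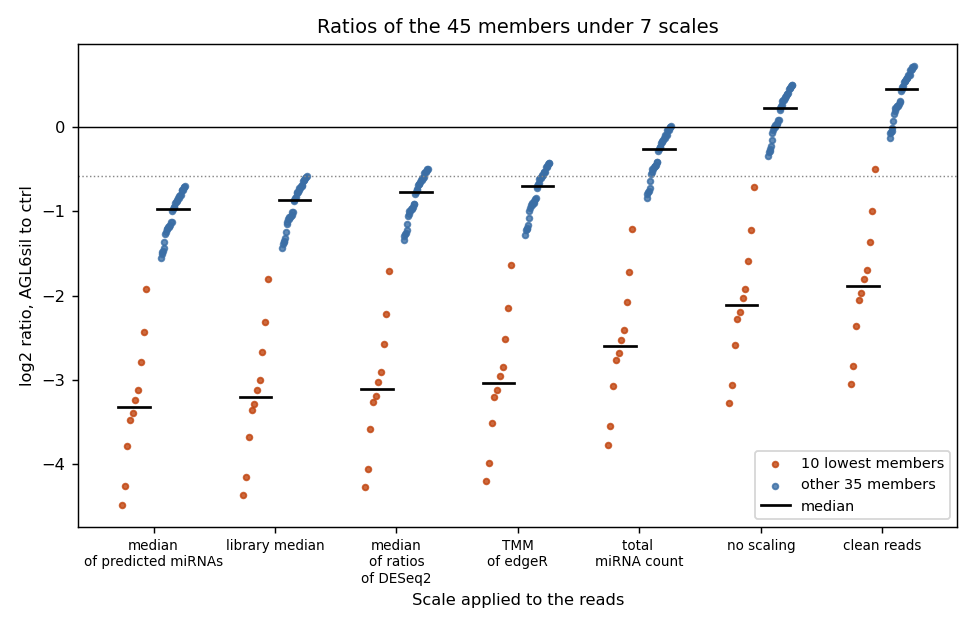
The log2 ratio of AGL6sil to ctrl of each member under 7 scales, with the 10 lowest members in orange, the other 35 in blue and a bar at the median of each group. Points within a group run in order of the ratio, the dotted line is the 1.5-fold limit, and the median of the other 35 members lies at −0.86 with the library median and at 0.45 with the clean reads, while the 10 lowest, divided off at −1.5, are below 0 throughout by that choice.

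IAA9sil was the library that did not enter the ratio. Its ratios to ctrl share the ctrl library with those that chose the members, so the ratios of IAA9sil are given beside those of AGL6sil as a description only. Over the 45 members the median log2 ratio of IAA9sil to ctrl was −0.20, with a range of −1.76 to 2.24, against −0.04 over the 235 predicted miRNAs with the same read limits and −0.05 over the 374 miRNAs with at least 50 reads. The median was −0.22 in the 10 low members and −0.18 in the other 35. After scaling, IAA9sil lay between AGL6sil and ctrl for 25 members, above ctrl for 15 and below AGL6sil for 5.

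By the same 1.5-fold limit, 11 of the 45 members were lower in IAA9sil than in ctrl, which is 24.4%, against 18.3% of the 235 and 20.1% of the 374. Another 4 members were higher, which is 8.89%, against 20.4% of the 235 and 17.1% of the 374. The remaining 30 lay within 1.5-fold of ctrl. These counts depend on the scale. With the total miRNA count or without scaling, 9 members were lower and 7 higher, and with the clean reads 6 were lower and 10 higher. With a shared ctrl library as well, nothing is read from either share. The interval in IAA9sil lay below 0 for 10 members, above 0 for 3, and included 0 for 32.

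**Figure D3:**
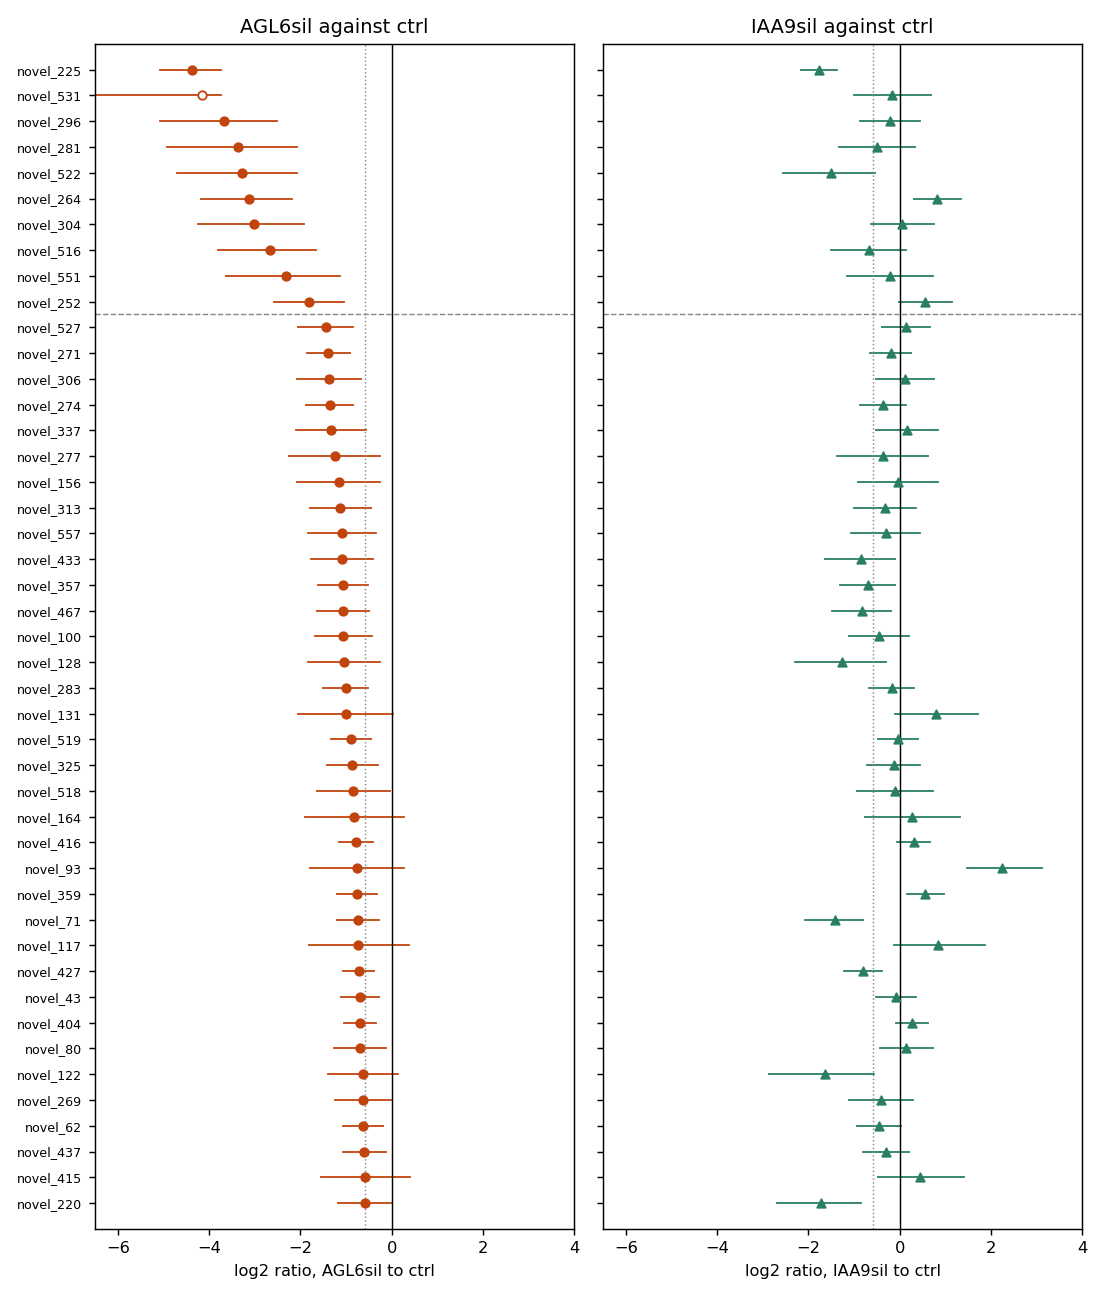
The log2 ratio to ctrl of each member in AGL6sil (left) and IAA9sil (right), with lines for the 95% counting interval, which for novel_531 in AGL6sil has no lower end (open circle, 0 reads taken as 3). The dotted line marks 1.5-fold lower and the dashed line parts the 10 lowest members, and the ratios in IAA9sil spread over both sides of 0, from −1.76 for novel_225 to 2.24 for novel_93.

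Besides novel_225, novel_522 and novel_516, the members lower in IAA9sil all came from the larger group. The lowest of them was novel_220, with 61 reads in AGL6sil and 15 in IAA9sil, against 43 in ctrl, and a log2 ratio of −1.74 (−2.69 to −0.86) in IAA9sil. novel_122 had 37, 10 and 27 reads and −1.65 (−2.86 to −0.56), and novel_71 had 94, 32 and 74 reads and −1.43 (−2.07 to −0.81). In these 3, IAA9sil and not AGL6sil was the lowest library, whether scaled or not. The same order after scaling was seen in novel_128, with 30, 14 and 29 reads and −1.27 (−2.30 to −0.30) in IAA9sil, and by a small margin in novel_427, at −0.81 (−1.22 to −0.39).

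In novel_433, novel_467 and novel_357, AGL6sil and ctrl had nearly the same raw count and IAA9sil the lowest. Counts of novel_433 were 39 in AGL6sil and 25 in IAA9sil, against 39 in ctrl. Those of novel_467 were 56, 36 and 55, and those of novel_357 were 60, 42 and 59. Their log2 ratios in IAA9sil were −0.86 (−1.64 to −0.10), −0.83 (−1.48 to −0.20) and −0.71 (−1.31 to −0.11). Each was smaller in size than the ratio in AGL6sil, which lay between −1.09 and −1.06. The ratios in AGL6sil rest on the scaling, since the raw counts were nearly those of ctrl. These 3 and novel_128 were singled out with their values known.

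In the 4 members higher in IAA9sil than in ctrl, AGL6sil was the lowest library after scaling, as the rule requires. novel_93, of 24 nt, had 20 reads in AGL6sil and 88 in IAA9sil, against 16 in ctrl, with log2 ratios of −0.77 (−1.79 to 0.28) in AGL6sil and 2.24 (1.46 to 3.11) in IAA9sil. It had the highest ratio in IAA9sil of the 45 members and of the 235. novel_117 had 18, 29 and 14 reads, with −0.73 (−1.82 to 0.39) in AGL6sil and 0.83 (−0.13 to 1.87) in IAA9sil. novel_131 had 18, 34 and 17 reads, with −1.01 (−2.05 to 0.04) and 0.78 (−0.10 to 1.72). The fourth was novel_264, described above. For novel_117 and novel_131 the intervals included 0 in both libraries, so neither direction was beyond counting error. novel_359, at 0.56 (0.16 to 0.97) in IAA9sil, stayed within the 1.5-fold limit with an interval above 0.

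Of the 24 members of the larger group that lay within 1.5-fold of ctrl in IAA9sil, the 5 with the lowest ratios in AGL6sil were novel_527, novel_271, novel_306, novel_274 and novel_337. They were singled out after their values were seen. Their log2 ratios ran from −1.44 to −1.32 in AGL6sil and from −0.36 to 0.16 in IAA9sil. novel_527 had 44 reads in AGL6sil and 71 in IAA9sil, against 56 in ctrl, and novel_271 had 70, 87 and 86. novel_306 had 33, 50 and 40 reads, novel_274 had 60, 65 and 72, and novel_337 had 29, 44 and 34. All 5 had their fewest raw reads in AGL6sil, the library with the most miRNA reads.

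In total 24 members fell outside the rule for naming, and they had between 54 and 293 reads over the 3 libraries. They had 18 to 113 reads in AGL6sil, 14 to 95 in IAA9sil and 15 to 86 in ctrl. Their log2 ratios ran from −1.44 to −0.60 in AGL6sil and from −1.27 to 0.27 in IAA9sil. In IAA9sil, 20 of them were within 1.5-fold of ctrl and 4 were lower. At the foot of this range in depth, named for that alone, were novel_164, with 18, 21 and 15 reads, and novel_277, with 18, 18 and 20, and at its top novel_43, with 113, 94 and 86.

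Set directly against each other, AGL6sil was lower than IAA9sil by at least 1.5-fold in 34 of the 45 members, which is 75.6%, against 24.3% of the 235. It was higher in 3 members, 6.67%, against 32.8% of the 235. AGL6sil chose the members, so nothing is read from either count. The 3 members higher in AGL6sil were novel_220 at a log2 ratio of 1.15 (0.32 to 2.07), novel_122 at 1.01 (−0.02 to 2.19) and novel_71 at 0.68 (0.09 to 1.31). All 10 low members were lower in AGL6sil than in IAA9sil, between −3.99 and −1.77, and the interval lay below 0 for each. They were divided off by the same AGL6sil values, so nothing is read from this either.

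Pairing without gaps set novel_264 and novel_220 beside known miRNA families. The 12 member sequences were set against all 46 known and 47 predicted sequences, in 1104 pairs. Strands were aligned without gaps, so duplexes that hold a bulge could be missed, as for novel_225 or any other member. A duplex of at least 16 paired bases with G:U pairs allowed was found in 13 pairs, 1.18% of them, with novel_281 and novel_93 entering once from each side. No pair had 18 or more identical bases. Of the 13 duplexes, 5 had at least 14 Watson-Crick pairs, a limit set after the values were seen, and the others had at most 13. These 5 joined novel_264 to sly-miR172a and sly-miR172c, and novel_220 to sly-miR395a, novel_4 and novel_81. They are printed here to show the pairing partners, again with the seed in capitals. The sequences compared were those the study listed as altered, so other partners were not looked for, and whether the strands of a pair come from 1 precursor was not tested.
sly-miR172a: aGAAUCUUgaugaugcugcau
sly-miR172c: aGAAUCUUgaugaugcugcag
sly-miR395a: cUGAAGUGuuugggggaacucc
novel_4: uUGAAGUGuuugagggaacuc
novel_81: gCUGAAGUguuuaggggaacu

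novel_264 paired with sly-miR172a and with sly-miR172c over 19 bases, with 17 paired bases of which 16 were Watson-Crick, and with 3′ overhangs of 1 base on novel_264 and 2 on the partner. Short 3′ overhangs on both strands are the form in which Dicer-like enzymes release a miRNA with its star strand. In Arabidopsis, miR172 restrains AP2-type transcription factors, which act in flower and fruit development. sly-miR172a had 2 reads in AGL6sil and 28 in IAA9sil, against 18 in ctrl, with log2 ratios of −4.26 (−7.41 to −2.20) in AGL6sil and 0.42 (−0.48 to 1.36) in IAA9sil. sly-miR172c had 28, 58 and 58 reads, with −2.14 (−2.85 to −1.47) and −0.22 (−0.77 to 0.33). The low ratio in AGL6sil chose novel_264, and the known sequences were compared because the study listed them as altered, so nothing is read from their shared lowness there. Under the 7 scales the ratio in AGL6sil reached at most −2.95 for sly-miR172a and −0.83 for sly-miR172c. In IAA9sil, novel_264 was above ctrl under each scale, between 0.81 and 1.16, and so was sly-miR172a, between 0.42 and 0.76, while sly-miR172c lay between −0.22 and 0.13 and changed sign. sly-miR172d, the third member of the family counted, had 77 reads in AGL6sil and 65 in IAA9sil, against 77 in ctrl, with a log2 ratio of −1.09 (−1.57 to −0.62) in AGL6sil and −0.46 (−0.96 to 0.04) in IAA9sil, and its sequence was not compared.

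novel_220 paired with sly-miR395a over 19 bases, with 17 paired bases of which 14 were Watson-Crick, and with overhangs of 1 and 3 bases. With novel_4 it had 17 paired bases, 15 of them Watson-Crick, and overhangs of 1 and 2. With novel_81 it again had 17 and 15, over 20 bases, with overhangs of 0 on novel_220 and 1 on novel_81. In Arabidopsis, miR395 acts on mRNAs of a sulfate transporter and of ATP sulfurylases, which serve sulfate uptake and assimilation. sly-miR395a had 7258 reads in AGL6sil and 904 in IAA9sil, against 2628 in ctrl, with log2 ratios of 0.38 (0.31 to 0.44) in AGL6sil and −1.76 (−1.87 to −1.65) in IAA9sil. novel_4 had 1898, 720 and 1938 reads, with −1.12 (−1.21 to −1.03) and −1.64 (−1.77 to −1.52), and novel_81 had 64, 5 and 24 reads, with 0.32 (−0.37 to 1.07) and −2.48 (−4.23 to −1.06). In IAA9sil all 4 were below ctrl under the 7 scales, novel_220 between −1.74 and −1.39. With the library median all 4 were past −1.5 in IAA9sil, and none was past 1.5 in either direction in AGL6sil. Only miRNAs that the study listed as altered were compared, so nothing is read from their shared lowness in IAA9sil. In AGL6sil they did not go one way. sly-miR395a and novel_81 were above ctrl under every scale tried, with an interval that included 0 for novel_81, novel_220 was above it with the total miRNA count, the clean reads and no scaling, and novel_4 was above it, at 0.19, with the clean reads.

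novel_69, which matched novel_220 at 16 of 19 aligned bases, short of the rule for naming, and was named after its values were seen, had 70 reads in AGL6sil and 3 in IAA9sil, against 6 in ctrl. Its log2 ratio was 2.45 (1.26 to 3.95) in AGL6sil, above ctrl under all 7 scales.

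The other duplexes, with fewer Watson-Crick pairs, joined novel_296 and novel_122 to novel_351, novel_516 to novel_267 and novel_493, and novel_93 to novel_104 and sly-miR5300. novel_351 had 6280 reads in AGL6sil and 416 in IAA9sil, against 732 in ctrl, and novel_267 had 366, 2 and 1. novel_493 had 343, 87 and 55 reads, and novel_104 had 76, 18 and 6. These 4 were higher in AGL6sil than in ctrl, unlike the members they paired with. sly-miR5300 had 228, 678 and 417 reads, and like novel_93 it was lowest in AGL6sil after scaling and highest in IAA9sil. The members were chosen for low ratios in AGL6sil, and the partners were on the study's list of altered miRNAs. Nothing is therefore read from how members and partners compare in AGL6sil.

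**Figure D4:**
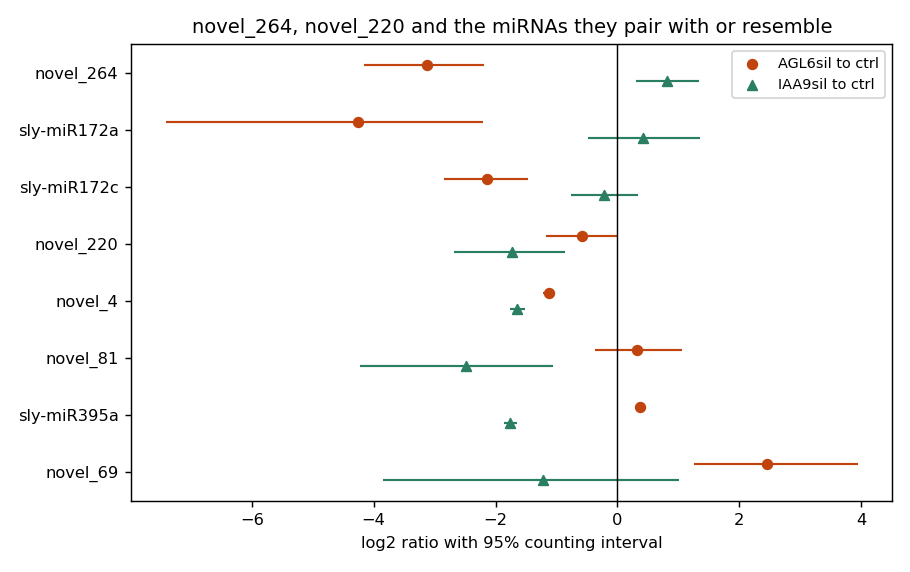
The log2 ratio to ctrl in AGL6sil (circles) and IAA9sil (triangles) of novel_264 with its partners of the miR172 family and of novel_220 with its partners and novel_69, with lines for the 95% counting interval. In AGL6sil, novel_264 and both of its partners lie between −4.26 and −2.14, and in IAA9sil, novel_220, its partners and novel_69 lie below 0, with an interval that includes 0 for novel_69. Only miRNAs that the study listed as altered were compared, so nothing is read from either shared lowness.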

How the data were processed

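Small RNA libraries of AGL6sil, IAA9sil and ctrl ovaries were analysed, 1 per condition, with groups taken from the sample titles and treatments. The authors deposited raw counts of reads per mature miRNA, without normalization. They had kept cleaned reads of 18 to 30 nt, mapped them to the genome with Bowtie (version and build not given in the sources used here), matched them to miRBase, predicted further miRNAs with miREvo and mirdeep2, and counted with custom scripts. Multiply mapping or near-identical mature sequences may share reads.

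Counts were divided by the library median over all known and predicted miRNAs. Log2 ratios were taken without a pseudocount, with 0 reads set to 3, and with 95% Clopper-Pearson intervals. No test was made, as there are no replicates. The members and lists were chosen with earlier results of these data known. Named are members at a log2 ratio of −1.5 or less in AGL6sil, the 5 with most reads, the 5 lowest and 5 highest in IAA9sil, those with 3 reads or fewer in a library, those with a sequence, and 2 on each side of the limit. Known or other predicted miRNAs are named where 18 of 20 bases are identical to a member or 16 pair with it, aligned without gaps.

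Sequences came from the supplementary tables. Alternatives were 6 other scales (the clean reads of each library were those stated by the study), a pseudocount of 1, a 2-fold limit, the counting interval and other read limits. Python 3.11.15, numpy 2.4.6, scipy 1.17.1, pandas 2.3.3, R 4.3.3, DESeq2 1.42.0 and edgeR 4.0.16 (size factors only) were used. The calculation of ratios and intervals was run on simulated counts with counting error alone. Those counts were scaled by the library totals used to draw them, so the run does not bear on the choice of scale.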

Additional observations from a re-analysis of the deposited data

Results flagged for a closer look

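In 4 members, AGL6sil was at least 1.5-fold lower and IAA9sil at least 1.5-fold higher than ctrl with the library median. On that scale the silenced libraries lay on opposite sides of ctrl. The log2 ratio of AGL6sil to IAA9sil was −3.93 for novel_264, −3.01 for novel_93, −1.79 for novel_131 and −1.56 for novel_117. The difference was not tested, since each condition has 1 library, and the members had been chosen for the low ratio in AGL6sil. For novel_93, novel_131 and novel_117 the raw count in AGL6sil was slightly above that in ctrl, with 20 against 16, 18 against 17 and 18 against 14 reads. In each of them the counting interval in AGL6sil included 0. With the clean reads or without scaling, both silenced libraries were above ctrl in each of them.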

How the results depend on the processing

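No paired analysis was possible because each condition has 1 library, and for the same reason no replicate could be left out. The number of predicted miRNAs chosen was 60 when scaled by predicted miRNAs alone, 39 by DESeq2 size factors, 33 by TMM, 16 with the total miRNA count, 10 without scaling and 9 with the clean reads. It was 26 with a 2-fold limit, 133 with no read limits, 34 with the read limits applied to AGL6sil and ctrl alone, 46 with a pseudocount of 1 and 45 by the counting interval, of which 38 were members. For the 45 members, the median log2 ratio in AGL6sil turned to 0.25 with the clean reads and 0.0317 without scaling, and for the 35 members above −1.5 to 0.45 and 0.23. The median in IAA9sil stayed between −0.20 and 0.14. Members lower in IAA9sil numbered 6 with the clean reads and 7 among the 28 members with 100 reads or more. Those higher numbered 6 with DESeq2 size factors or TMM, 7 with the total miRNA count or without scaling, 10 with the clean reads and 2 among the members with 100 reads or more.

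Single members turned above ctrl in AGL6sil with the clean reads and without scaling as follows. The ratios were 0.55 and 0.33 for novel_359, 0.59 and 0.37 for novel_427, 0.53 and 0.31 for novel_416, 0.62 and 0.40 for novel_404, and 0.73 and 0.50 for novel_220. They were 0.68 and 0.45 for novel_122, 0.57 and 0.35 for novel_71, 0.31 and 0.0825 for novel_131, 0.59 and 0.36 for novel_117, 0.54 and 0.32 for novel_93, and 0.72 and 0.50 for novel_415. With the total miRNA count, novel_220 was at 0.0115 and novel_415 at 0.0045. Every scale moves all ratios of a library by the same amount, so these turns follow from the scale. No named ratio in IAA9sil that was past the 1.5-fold limit turned under any scale or with the pseudocount. The ratios of the 10 lowest members and of the others were summarised apart after seeing the data. The depth limits what can be said of the 17 members with fewer than 100 reads.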
